A study of Mus musculus with 2 samples.

Results

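Sulfiredoxin, glutathione, thioredoxin and related antioxidant genes were followed in mouse embryonic stem (ES) cells in which c-Jun, the AP-1 subunit encoded by Jun, was switched on. The 62 genes described here were taken by symbol from a table of 14261 genes, by a rule set with earlier results of these data known. They comprise regulators of the NRF2 pathway, the enzymes of glutathione synthesis and recycling, glutathione S-transferases and peroxidases, peroxiredoxins with sulfiredoxin, the thioredoxin system, glutaredoxins, superoxide dismutases with catalase, quinone, heme and iron genes, metallothioneins, and the sestrins Sesn1 and Sesn3. The cells, called TRE-ESCs in the labels, grew as a suspension for 36 h in dishes to which cells adhere poorly. Their medium, N2B27 plus 2i plus LIF, contains kinase inhibitors and a cytokine that maintain the naive state. The standard form of the B27 supplement contains antioxidants, and the labels do not say which form was used. The group without dox, TRE-suspend-36h, received no agent, and the group with dox, TRE-suspend-adox-36h, received doxycycline, the drug that acts on tetracycline-controlled promoters. Each group was 1 library without replicates, which allows no test and no error on a value. Neither library came from cells that received the drug without c-Jun induction, so effects of the drug and of c-Jun cannot be told apart. The labels give neither the strain nor the clone.

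NRF2, encoded by Nfe2l2, is a transcription factor that is held in check by Keap1, which marks it for destruction in unstressed cells. When oxidants or electrophiles modify Keap1, NRF2 pairs with small Maf proteins on antioxidant response elements (AREs) and raises genes that make glutathione, reduce thioredoxin and detoxify quinones. The ARE core resembles the site of AP-1 dimers, and both can overlap in a promoter. Peroxiredoxins and glutathione peroxidases remove peroxides, and sulfiredoxin restores peroxiredoxins that were inactivated by excess peroxide.

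The table gives whole numbers on a normalized scale in which the quartiles were 14, 62 and 184 in both libraries, and sequencing depth is unknown. The values below are on this scale, and a log2 ratio is that of the value with dox over the value without dox with a pseudocount of 10 on both. The induction check was Jun, at 55 without and 3821 with the drug, a log2 ratio of 5.88. Of 8 pluripotency markers 7 had smaller values with dox and 1, the Oct4 gene Pou5f1, a larger one, at 3230 and 3572. At least 2-fold lower were 5 of the 8. These were Nanog at 2508 and 623, Esrrb at 1531 and 500, and Zfp42 at 1047 and 459, with Sall4 at 590 and 287 and Utf1 at 270 and 73. Sox2, at 1042 and 521, and Dppa5a, at 4342 and 3818, were within 2-fold. The summed value of the 8 was 14560 without dox and 9853 with dox. All 10 fibroblast markers were under a value of 50, with sums of 34 and 83, and Lum and Dcn were at 0 in both libraries. Of 9 blood and endothelial markers 7 had a row, with sums of 285 and 445. Among these, 2 of the 4 that reached 50 were at least 2-fold higher, Csf1r at 1 and 111 and Cd68 at 19 and 96, while Pecam1, at 205 and 152, and Tek, at 52 and 64, were within 2-fold. Under 50, Kdr was at 8 and 3, Ptprc at 0 and 19 and Lyz2 at 0 in both libraries. Of 10 endoderm and trophectoderm markers 7 had a row, with sums of 227 and 571, of which Krt7 made up 0 and 374 and Tfap2c 159 and 113. Of 8 neural and mesoderm markers 5 had a row, with sums of 484 and 308. The 3 of them that reached 50 passed 2-fold in opposite directions, Nes higher at 55 and 151, and T and Tubb3 lower at 121 and 24 and at 302 and 127. The part of such cells in the values below was not tested.

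Most antioxidant genes lay within 2-fold between the libraries, and the sulfiredoxin gene Srxn1 was the one member beyond 4-fold. Of the 62 genes 44 had a value of at least 50 in at least 1 library, the floor for a comparison. Of these 44, 3 were at least 2-fold higher with dox (Srxn1, Sesn3 and Gstp1), 4 were at least 2-fold lower (Gpx2, Gstm3, Sod2 and Gstp2) and 37 lay within 2-fold. The 7 genes past 2-fold are 15.9% of the 44, beside 14.7% of all 8547 genes at the floor, so their number is close to the background. By direction, 6.82% of the members were higher, beside 9.23% of all genes, and 9.09% were lower, beside 5.49%. The median log2 ratio was −0.13 over the members and −0.08 over all genes at the floor. Setting the latter to 0 gave 5 members higher and 2 lower, beside 10.2% and 4.36% of all genes, so the split between directions rests on the scaling. In bulk RNA, fewer cells that express a gene and less RNA per cell cannot be told apart.

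**Figure D1:**
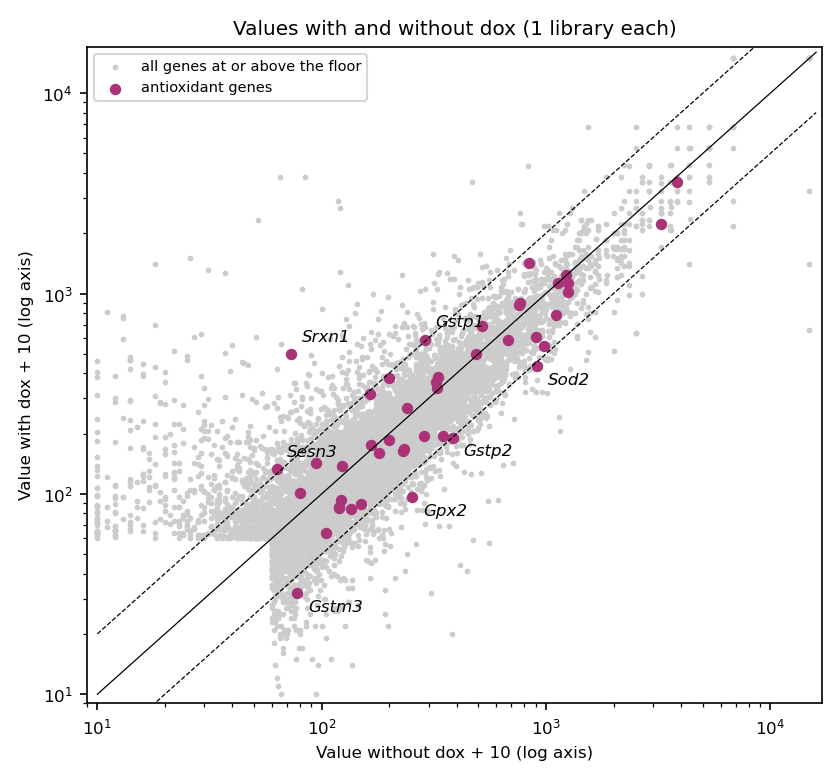
Values without dox (horizontal) and with dox (vertical), each plus 10 on log axes, with 1 point per gene and 1 library per axis. Grey points are the 8547 genes at the floor, purple points the 44 antioxidant genes, the solid line marks equal values and the dashed lines 2-fold. Srxn1, at 63 and 488, stands apart from the other antioxidant genes.

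Srxn1 encodes sulfiredoxin, the enzyme that uses ATP to repair over-oxidized peroxiredoxins. It stood at 63 without dox and at 488 with dox. The library with dox was thus 6.82-fold higher, a log2 ratio of 2.77, and Srxn1 ranked 137 from the top among the 8547 genes. Srxn1 lies on chromosome 2 from 152105516 to 152111376 on the plus strand (GRCm38). No stretch of 75 bases of its transcript occurs in a transcript of another gene.

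The peroxiredoxins, some of which are the substrates of sulfiredoxin, were all within 2-fold. Prdx1, the abundant cytosolic peroxiredoxin, stood at 3246 and 2224, a log2 ratio of −0.54. Prdx2, its close relative in the cytosol, stood at 1249 and 1121, and the mitochondrial Prdx3 at 189 and 176. Prdx4, the peroxiredoxin of the endoplasmic reticulum, stood at 221 and 154, and Prdx5, found in mitochondria and peroxisomes, at 110 and 76. Prdx6, which also acts on phospholipid peroxides, had the lowest log2 ratio of the 6, −0.83, at 336 and 185. All 6 peroxiredoxins thus had smaller values with dox, as did 54.9% of all genes at the floor. With the trend on transcript length removed, however, Prdx2 and Prdx3 had log2 ratios of 0.05 and 0.13.

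The promoters of Srxn1, Prdx1, Gstp1 and Gstp2 are shown because these genes carry AP-1 matches and went different ways. The sequences are from RefSeq (GRCm38.p6), the 250 bases before the annotated start site, written 5′ to 3′ on the strand of the gene. Capitals mark matches to the AP-1 motif TGANTCA or to the ARE core TGACNNNGC on either strand.
Srxn1 (chr2:152105274-152105523, plus strand): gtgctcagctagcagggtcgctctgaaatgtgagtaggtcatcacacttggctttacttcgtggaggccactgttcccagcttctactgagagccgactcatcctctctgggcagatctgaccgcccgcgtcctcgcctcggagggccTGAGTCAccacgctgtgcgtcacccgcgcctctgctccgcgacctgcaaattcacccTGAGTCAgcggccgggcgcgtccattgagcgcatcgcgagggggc
Prdx1 (chr4:116685349-116685598, plus strand): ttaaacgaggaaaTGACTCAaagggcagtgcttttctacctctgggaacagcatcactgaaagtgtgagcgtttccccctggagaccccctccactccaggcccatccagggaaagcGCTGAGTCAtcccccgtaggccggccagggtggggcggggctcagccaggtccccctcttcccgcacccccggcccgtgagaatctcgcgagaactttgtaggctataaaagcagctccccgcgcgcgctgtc
Gstp1 (chr19:4037913-4038162, minus strand): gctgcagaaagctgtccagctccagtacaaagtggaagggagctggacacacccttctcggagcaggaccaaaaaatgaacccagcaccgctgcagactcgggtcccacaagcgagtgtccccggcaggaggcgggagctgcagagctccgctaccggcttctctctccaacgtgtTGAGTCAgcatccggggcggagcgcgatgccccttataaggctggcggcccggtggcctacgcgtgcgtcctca
Gstp2 (chr19:4042222-4042471, minus strand): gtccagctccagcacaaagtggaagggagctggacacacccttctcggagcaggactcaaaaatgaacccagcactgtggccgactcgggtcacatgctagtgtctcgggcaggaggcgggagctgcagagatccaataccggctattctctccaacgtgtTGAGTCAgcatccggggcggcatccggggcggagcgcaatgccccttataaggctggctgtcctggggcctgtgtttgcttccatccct
The Srxn1 promoter held 2 AP-1 matches, which begin 102 and 45 bases before the start site. An ARE match, GCTAGGTCA on the strand of the gene, begins at base 29 of its transcript. The Prdx1 promoter also held 2 AP-1 matches, which begin 237 and 131 bases before the start, and the second overlaps an ARE match. Srxn1 and Prdx1 thus both had AP-1 and ARE matches, at different positions, and had log2 ratios of 2.77 and −0.54. Whether these matches play a part in the values was not tested.

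Promoter windows of 300 bases, 250 before and 50 after the start, were found for 55 of the 62 genes. Gclc, Gsr, Gsta4, Gstt2, Hmox1, Prdx6 and Sod3 had none. Of the 39 members at the floor that had a window, 6 held an AP-1 match (15.4%), beside 371 of 6693 genes at the floor (5.54%) and 7.81% of all 32851 windows. These were Srxn1, Gstp1, Gstp2, Prdx1, the glutaredoxin gene Glrx and the metallothionein gene Mt2. Gstp1 and Gstp2 are neighbours with windows 87.5% identical over aligned bases, so their matches are not independent. A gene counted if any of its windows held a match, and the 55 genes had 78 windows, so shares of genes and of windows are unlike measures. An ARE match was found in 7 of the 39 members (17.9%), beside 17.1% of genes at the floor and 12.4% of all windows. Besides Srxn1 and Prdx1 these were Mt2, Txnrd1, Gclm, Nfe2l2 and Sod1. In Mt2 the AP-1 and ARE matches begin at the same base, as TGACTCAGC. The metal response element, searched as TGCACNC or TGCGCNC on both strands, was found in 12 of the 39 members (30.8%), beside 42.8% of genes at the floor and 25.7% of all windows. A match says only that these letters stand in the window.

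**Figure D2:**
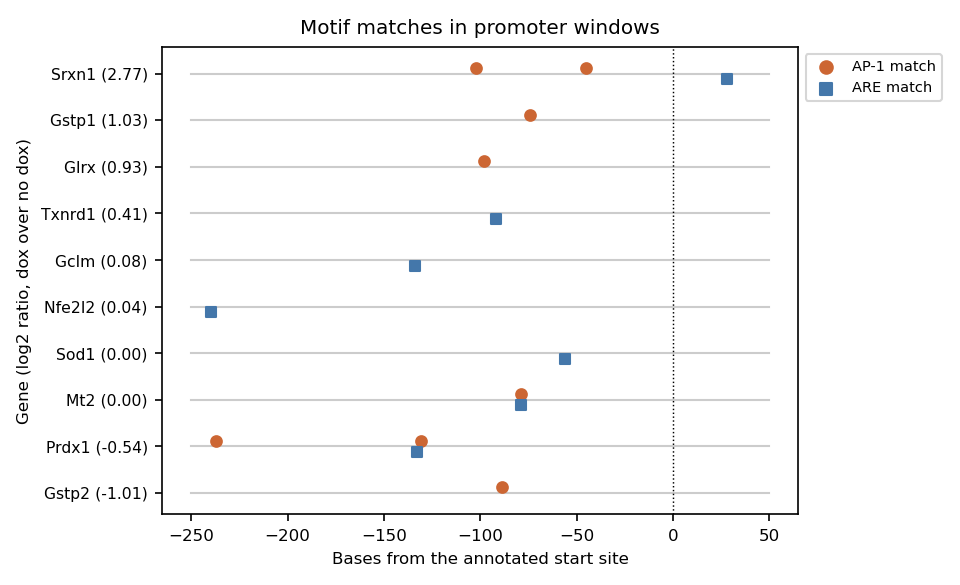
Positions of AP-1 matches (circles) and ARE matches (squares) in bases from the annotated start site (dotted line) for the members at the floor that had a match, ordered by log2 ratio (in parentheses). Genes with AP-1 matches run from Srxn1, at 2.77, to Gstp2, at −1.01.

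The regulators of the pathway were within 2-fold. Nfe2l2 stood at 317 and 327, a log2 ratio of 0.04, and its inhibitor Keap1 at 171 and 150, a log2 ratio of −0.18. Nfe2l1, a related factor best known for controlling proteasome genes, stood at 832 and 1416, a log2 ratio of 0.76. Among 12 further genes for partners and turnover of NRF2, 8 reached the floor. Of these 8, 1 was higher (12.5%) and 0 were lower, beside 9.23% and 5.49% of all genes. The higher one was Bach1, a repressor that competes with NRF2 for AREs, at 197 and 607, a log2 ratio of 1.58. Of the small Maf genes, Mafg was at 365 and 388, while Mafk, at 12 and 43, and Maff, at 0 and 7, were under the floor. Cul3, the ubiquitin ligase scaffold that Keap1 recruits, was at 504 and 519. Of the regulators at the floor described here, Bach1 alone passed 2-fold.

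The enzymes that make and recycle glutathione were within 2-fold as well. Gclc encodes the catalytic subunit of the rate-limiting ligase of glutathione synthesis. It stood at 140 and 79, a log2 ratio of −0.75, whereas its modifier subunit Gclm stood at 156 and 166. Gss, which completes the tripeptide, stood at 314 and 350. Gsr, which reduces oxidized glutathione, stood at 479 and 491. The values of Gclm, Gss and Gsr were therefore close in both libraries, and that of Gclc was smaller with dox.

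The supply of cysteine and NADPH was described by 17 further genes, of which 14 reached the floor, with a median log2 ratio of 0.00. Of the 14, 1 was higher and 1 was lower (7.14% each), beside 9.23% and 5.49% of all genes. Cbs, which makes cystathionine from homocysteine on the way to cysteine, was lower, at 255 and 73, a log2 ratio of −1.67. Cth, the enzyme of the next step, was at 508 and 323. Oplah, which returns oxoproline to glutamate after glutathione breakdown, was higher, at 34 and 104. Slc7a11, the cystine importer and a well-known NRF2 target, was at 66 and 65. Of the enzymes of NADPH supply and the pentose phosphate pathway, Pgd was at 1245 and 1207, Tkt at 1271 and 1292 and Idh2 at 587 and 620. Larger values with dox stood in Me1 (275 and 435), Taldo1 (620 and 854) and G6pdx (268 and 330). Smaller ones stood in Idh1 (571 and 475) and Nnt (86 and 70), and all of these enzymes were within 2-fold.

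Of 19 glutathione S-transferases, which attach glutathione to electrophiles, 7 reached the floor, with a median log2 ratio of −0.55. With the trend on transcript length removed this median was −0.29. Over all genes at the floor the median was −0.08. Gstm3 was lower with dox, at 68 and 22, a log2 ratio of −1.29, and 21.6% of its 75-base stretches occur in other genes. With a pseudocount of 50 the log2 ratio of Gstm3 was −0.71, within 2-fold. The other mu class genes at the floor, in the same cluster on chromosome 3, had smaller values with dox, within 2-fold, with Gstm1 at 276 and 185 and Gstm2 at 112 and 83. Gsta4, which acts on lipid aldehydes, stood at 968 and 537, a log2 ratio of −0.84. Per kilobase of transcript its level was 991 without dox and 550 with dox, the highest of the transferases without dox, as it also was before division by length. Gsto1, of the omega class, had a larger value with dox, at 84 and 132. The other 12 transferases were under the floor. Gstk1 and Mgst1 were listed at 0 in both libraries, Gstm7, of the mu cluster too, stood at 8 and 41, Mgst3 at 8 and 36, and Gsta3 at 33 and 11.

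Gstp1 and Gstp2, neighbouring pi class genes on the minus strand of chromosome 19, had opposite differences. Gstp1 (4035407 to 4037985) was higher with dox, at 278 and 578, a log2 ratio of 1.03. Gstp2 was lower, at 375 and 181, a log2 ratio of −1.01. These calls are uncertain because 57.7% of the 75-base stretches of the Gstp1 transcript occur in Gstp2 and 59.6% of those of Gstp2 occur in Gstp1, so most reads of either could be assigned to both. With a pseudocount of 50 the log2 ratios were 0.94 and −0.88, within 2-fold, and that of Gstp2 was also within 2-fold with the length trend removed, at −0.68, and with the median of all genes set to 0, at −0.93. Their summed value was 653 and 759, a log2 ratio of 0.21. Their promoter windows were 87.5% identical over aligned bases, and both hold the AP-1 match TGAGTCA, which begins 74 and 89 bases before the start.

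**Figure D3:**
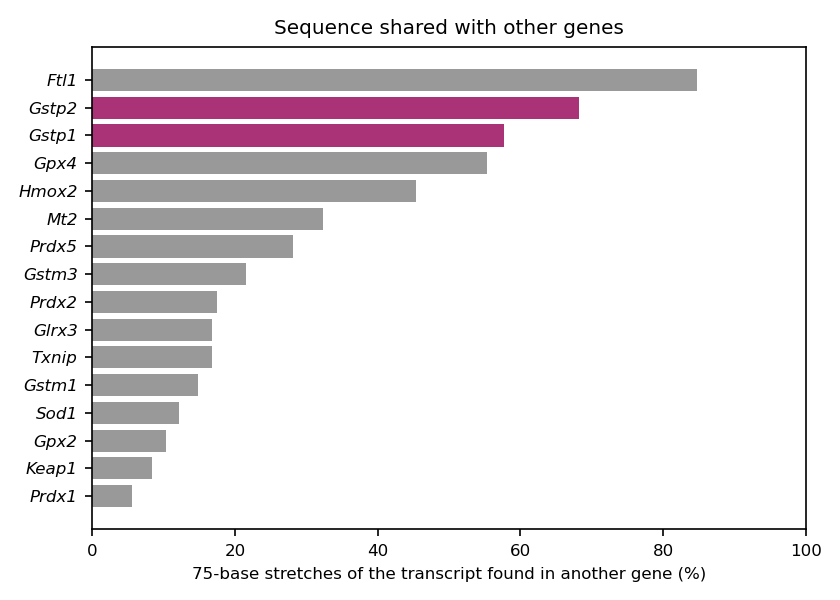
Share of the 75-base stretches of the longest protein-coding transcript that also occur in a transcript of another gene (horizontal axis, %), for members at the floor above 5%. Purple bars are Gstp1 and Gstp2, which share most of their stretches with each other, and Ftl1 has the largest share, 84.8%.

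Glutathione peroxidases reduce peroxides with glutathione. Gpx2, the form best known from the gut epithelium, had the lowest log2 ratio of the 44 members, −1.40, at 244 and 86, with 10.3% of its stretches shared with a pseudogene. It lies on chromosome 12 from 76792333 to 76795554. Gpx1, the abundant cytosolic form, stood at 1247 and 1007, and Gpx4, which reduces lipid peroxides in membranes and protects from ferroptosis, at 750 and 864. Gpx3, Gpx7 and Gpx8 were under the floor, with values from 10 to 31 without dox and from 21 to 40 with dox.

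All 4 genes of the thioredoxin system at the floor had larger values with dox, also with the trend on transcript length removed, and 0 passed 2-fold. Of all 8547 genes at the floor 3771 had larger values with dox. Txn1, the cytosolic thioredoxin, stood at 752 and 883, and Txn2, the mitochondrial one, at 231 and 258. Txnrd1, which reduces thioredoxin with NADPH, stood at 506 and 676, a log2 ratio of 0.41. Txnip, which binds thioredoxin and limits glucose uptake, stood at 190 and 369, a log2 ratio of 0.92. Txnrd2, at 15 and 13, and Txnrd3, at 29 and 21, were under the floor and had smaller values with dox.

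Glutaredoxins use glutathione to reduce protein disulfides or to carry iron-sulfur clusters. Glrx, the cytosolic reductase, stood at 155 and 305, a log2 ratio of 0.93. The mitochondrial Glrx2 had a smaller value with dox, at 95 and 54, as did Glrx5, of iron-sulfur cluster assembly, at 110 and 75. Glrx3 stood at 670 and 574. Glrx and Txnip lay just inside 2-fold, and with the median of all genes set to 0 both reached it.

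**Figure D4:**
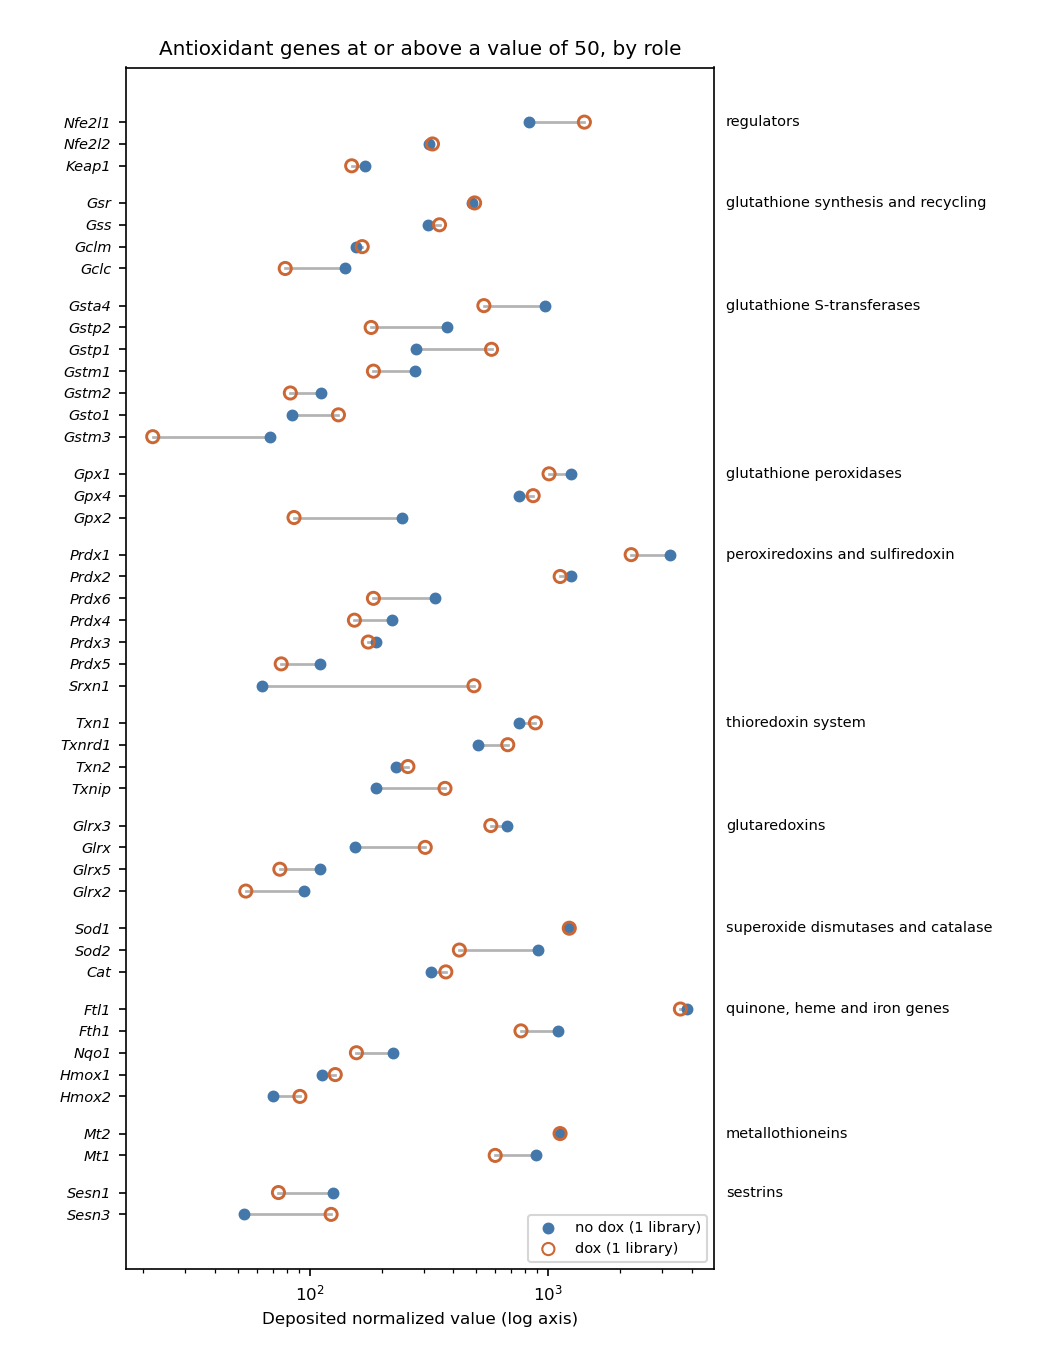
Deposited normalized values (log axis) of the 44 members at the floor, by role, with filled points for the library without dox and open circles for the library with dox. The longest line joins the values of Srxn1, 63 and 488, while those of Sod1 and Mt2 were equal in both libraries.

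Superoxide dismutases convert superoxide to hydrogen peroxide, which catalase removes. Sod2, the manganese enzyme of mitochondria, was lower with dox, at 904 and 424, a log2 ratio of −1.07. With the median of all genes set to 0 it was −0.996, just within 2-fold. It lies on chromosome 17 from 13006846 to 13040063. Sod1, the cytosolic copper-zinc enzyme, was listed at 1224 in both libraries, and the secreted Sod3 was at 0 in both. Cat, which encodes catalase of peroxisomes, stood at 321 and 372.

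The quinone, heme and iron genes were all within 2-fold. Nqo1, a quinone reductase and a standard readout of NRF2, stood at 223 and 157, a log2 ratio of −0.48. Hmox1, the inducible heme oxygenase, stood at 113 and 128, and the constitutive Hmox2 at 70 and 91. The ferritin heavy chain gene Fth1 stood at 1101 and 768 and the light chain gene Ftl1 at 3821 and 3576. Of the stretches of Ftl1 84.8% occur in other genes, most often in Ftl1-ps1, a pseudogene by its name. Per kilobase of transcript Ftl1 had the highest level of the members, 3947 without dox and 3694 with dox, ahead of Mt2 at 2192 in both. These levels assume that the deposited values were not already divided by length, which no source used here states, and without that division Prdx1, at 3246 and 2224, follows Ftl1.

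Metallothioneins bind zinc and copper and are induced by metals through MTF1. Mt1 stood at 890 and 599, a log2 ratio of −0.56, and Mt2 was listed at 1120 in both libraries. Equal values stood in 86 of the 8547 genes at the floor (1.01%), Mt2 and Sod1 among them. By value Mt2 ranked 344 and Sod1 ranked 294 in both libraries. Because 75.5% of sorted positions held equal values, an equal value may reflect an equal rank and not an equal amount of RNA. Of 12 iron and metal handling genes, 9 reached the floor, with a median log2 ratio of 0.16. Of these 9, 0 were higher and 2 were lower (22.2%), beside 9.23% and 5.49% of all genes. Slc30a1, a zinc exporter that MTF1 also induces, was lower, at 138 and 61, and so was Ncoa4, the receptor that delivers ferritin to autophagy, at 437 and 210.

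Sestrins are stress-induced proteins that restrain mTORC1. Sesn3 was higher with dox, at 53 and 123, a log2 ratio of 1.08, which was 0.78 with the trend on transcript length removed and 0.75 with a pseudocount of 50, both within 2-fold. Sesn1, a known p53 target, had a smaller value with dox, at 125 and 74. Sesn2, which the symbol rule does not take, stood at 187 and 203.

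The remaining pathway genes gave a few larger differences. Of 17 further NRF2 targets 14 had a row and 10 reached the floor, with a median log2 ratio of −0.26. Sqstm1, the autophagy receptor that binds Keap1, was higher, at 485 and 1072, while the carbonyl reductase gene Cbr3 was lower, at 94 and 15, a log2 ratio of −2.06. Of 17 peroxide and protein repair genes 13 reached the floor. Qsox1, an oxidase that forms disulfides and releases hydrogen peroxide, was higher, at 33 and 172, a log2 ratio of 2.08. Nudt1, which clears oxidized nucleotides, was lower, at 115 and 47, as was the mitochondrial methionine sulfoxide reductase gene Msrb2, at 60 and 22. Of 11 oxidant source genes 8 had a row and 3 reached the floor. Cyba, a membrane subunit shared by several NADPH oxidases, was higher, at 24 and 65. Of its catalytic partners, Cybb was at 0 in both libraries and Nox4 at 58 in both. Of the blood and endothelial markers given above, the 2 past 2-fold, Csf1r and Cd68, were both higher with dox. Ptprc and Tek also had larger values with dox, while Pecam1 and Kdr had smaller ones and Lyz2 was at 0 in both libraries. The part of such cells in the Cyba value was not tested. Over these 6 lists 5 of 57 genes at the floor were higher and 6 lower, together 19.3%, beside 14.7% of all genes.

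**Figure D5:**
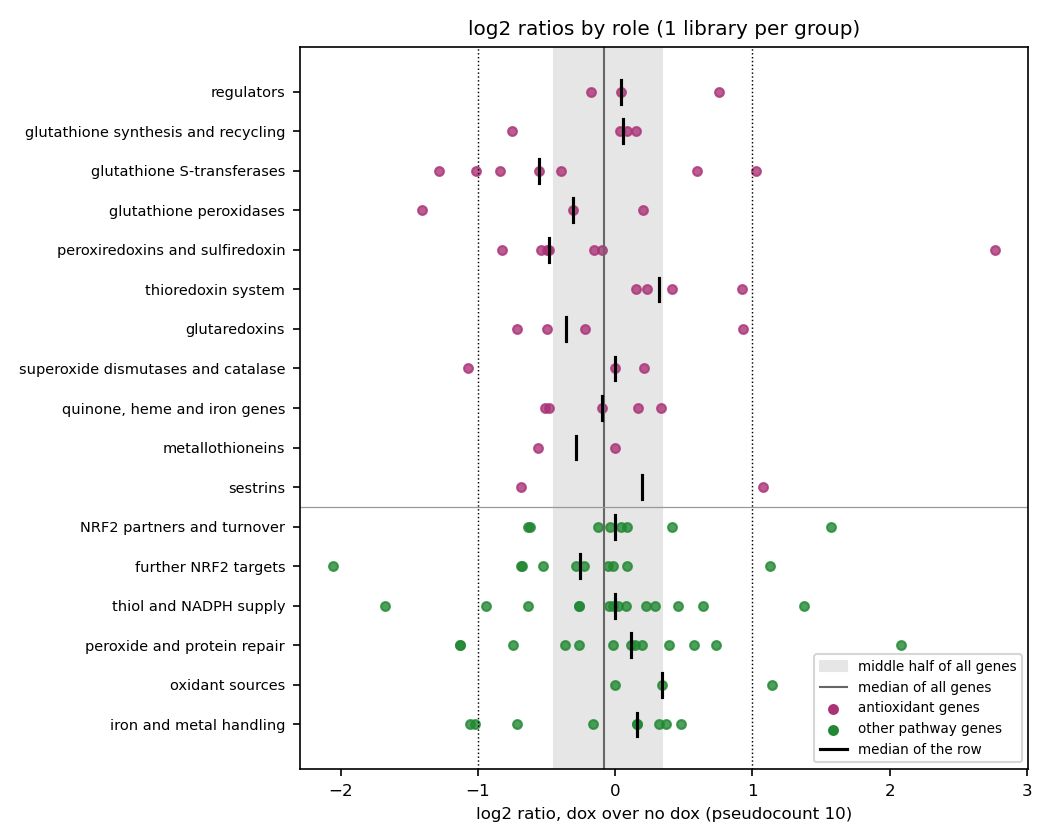
log2 ratio of dox over no dox (horizontal axis, pseudocount 10) for each member by role (purple) and for the other pathway genes by list (green), with black bars at row medians. Grey shading spans the quartiles of all genes, −0.44 to 0.34, the grey line is their median, −0.08, and dotted lines mark 2-fold.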

How the data were processed

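RNA was extracted with TRIzol, and TruSeq RNA libraries were read on a NextSeq 500, per the labels' protocols. The tools bcl2fastq, Bowtie2 and RSEM and the build mm10 are named per the submitters' processing notes. Their versions, the annotation, the normalization and any filter were not stated there. The deposited values were handled as a score, normalized and rounded by the authors, because both libraries had equal quartiles and 75.5% of sorted positions held equal values. Depth is therefore unknown, no count model was used and no counting interval can be given. The unused value columns numbered 0.

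Genes were compared where the larger value was at least 50, by log2 ratio with a pseudocount of 10, and called at 2-fold. With 1 library per group no test was possible. Members at the floor were named in full or by range, and list genes where past 2-fold. Other list genes named in the text, such as Slc7a11, Cth, Sesn2 and the small Maf genes, were chosen after their values were seen. Members and lists were chosen with earlier results of these data known. Symbols were matched to GENCODE M21 (GRCm38, the assembly of mm10), which gave coordinates, and 99.1% of genes at the floor had a transcript length, whose trend was removed by lowess (fraction 0.3) in an alternative. The trend used the longest annotated transcript of any type, 3970 bases for Sod1 and 3165 for Gpx2, which can exceed the coding one. Levels per kilobase used the longest protein-coding transcript, 641 and 1067 bases for Sod1 and Gpx2. Stretches of 75 bases, the cycles of the sequencing kit, were matched exactly on either strand. Python 3.11.15, numpy 2.4.6, pandas 2.3.3 and statsmodels 0.14.6 were used, and the steps were tested on simulated data.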

Additional observations from a re-analysis of the deposited data

How the results depend on the processing

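The members at least 2-fold higher and lower, 3 and 4 as reported, were 1 and 2 with a pseudocount of 50, 5 and 2 with the median of all genes set to 0, 7 and 9 at 1.5-fold, and 1 and 0 at 4-fold. At 1.5-fold these are 15.9% and 20.5% of the 44 members, beside 16.7% and 17.7% of all genes at the floor, which is close to the background. The shares of all genes at 4-fold were 3.11% and 0.644%, with the pseudocount of 50 they were 5.83% and 2%, and with the median set to 0 they were 10.2% and 4.36%. With the trend on length taken out, 2 of the 44 members were higher and 3 lower, beside 8.49% and 5.31% of all genes. With no floor 5 of 59 genes were higher and 5 lower, and with a floor of 250, 2 of 27 were higher and 2 lower, beside 9.21% and 5.84% of all genes with no floor and 9.56% and 4.71% with that of 250. The median log2 ratio of −0.13 was 0.00 with the floor of 250 and −0.022 once the trend on length was taken out. An alternative chosen after seeing the data left out the 4 members that share over 50% of their stretches, and gave 2 higher, 3 lower and a median of −0.17. Across the alternatives run for each gene, Srxn1 ranged from 2.25 to 2.93 and Gpx2 from −1.49 to −1.11, past 2-fold in each. Sod2 was −0.996 with the median of all genes set to 0. Sesn3, Gstp1, Gstp2 and Gstm3 came within 2-fold under at least 1 setting, with ranges of 0.75 to 1.20, 0.94 to 1.36, −1.05 to −0.68 and −1.59 to −0.71. The cause of these shifts was not tested. Depth is unknown, so how precisely genes near the floor were measured cannot be stated. No paired analysis was possible because each group had 1 library.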

Other observations

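Members that act in mitochondria were gathered after their values were seen. Of 8 such genes (Sod2, Prdx3, Prdx5, Txn2, Txnrd2, Glrx2, Glrx5 and Gpx4, which has a mitochondrial form) 7 reached the floor, 1 was at least 2-fold lower with dox and 0 were higher. The 1 of 7 is 14.3%, beside 14.7% of all genes past 2-fold in either direction, so the count over both directions is close to the background. By direction, 5.49% of all genes were lower and 9.23% higher. Their median log2 ratio was −0.48, beside −0.08 over all genes at the floor, and −0.32 with the length trend removed. Txn2 and Gpx4 had larger values with dox, at 231 and 258 and at 750 and 864.

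Over all genes at the floor that had a promoter window, an AP-1 match stood in 64 of 605 genes at least 2-fold higher with dox (10.6%), in 21 of 352 at least 2-fold lower (5.97%) and in 286 of 5736 within 2-fold (4.99%). For the ARE core these shares were 19.5%, 16.2% and 16.9%. The differences between these shares were not tested.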
